A study of Mus musculus with 8 samples.

Results

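The 9 genes described here encode the main β-cell hormones and the enzymes and binding proteins that mature them: Ins1, Ins2, Iapp, Pcsk1, Pcsk2, Cpe, Pcsk1n, Scg5 and Pam. They were chosen by gene symbol for this shared pathway, with earlier results of these data known. All 9 were found among the 27534 genes of the deposited table and among the 15442 that had enough counts to be tested. The libraries came from bulk RNA of pancreatic islets of C57BL/6J mice, with no genetic change named in the labels. Islets were kept for 72 h in RPMI medium with serum and either 20 mM glucose (high glucose, 4 libraries) or 7.5 mM glucose (low glucose, 4 libraries). No animal's age or sex is given, and nothing in the labels says whether the 4 libraries of a group came from separate animals or cultures, so the p-values measure the spread between these libraries, which may be technical. The title of the series names IRE1α, which senses unfolded protein in the endoplasmic reticulum, and early β-cell compensation.

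β cells make insulin as a precursor, which the endoproteases encoded by Pcsk1 and Pcsk2 cut after pairs of basic residues on its way through the Golgi and in secretory granules. The carboxypeptidase encoded by Cpe then removes the exposed basic residues, and the enzyme encoded by Pam amidates the end of peptides that carry a terminal glycine, amylin among them. Pcsk1n encodes proSAAS, whose peptides inhibit the Pcsk1 product, while Scg5 encodes a granule protein that binds the precursor of the Pcsk2 enzyme and is needed for its activity. Mice, unlike most mammals, carry an insulin gene pair, of which Ins1 is the copy that arose from an RNA intermediate.

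Of the 9 transcripts, 6 rose in high glucose, 1 fell and 2 did not pass the test (edgeR quasi-likelihood test, Benjamini-Hochberg adjustment over all tested genes, threshold 0.05). Over all tested genes, 13.1% rose and 11.9% fell (2023 and 1831 genes). With plain library sizes in place of TMM scaling, 1602 genes rose and 2636 fell, while the members called were again 6 higher and 1 lower. Pcsk1 and Pam rose 2.2-fold and 2.08-fold, Iapp 1.63-fold, Cpe 1.41-fold, Scg5 1.34-fold and Pcsk2 1.3-fold. Pcsk1n fell, being 1.47-fold higher in low glucose, and neither Ins1 nor Ins2 passed. For 5 members, all of them called higher, every high glucose library lay above every low glucose library; this held for 13.7% of tested genes, and the reverse order, seen in no member, for 13.6%. The median log2 fold change was 0.42 over the members and -0.01 over all tested genes. With the replicate number as a block, 7 members, now with Ins1, were higher and 1 lower, beside 18.9% and 18.5% of tested genes.

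**Figure D1:**
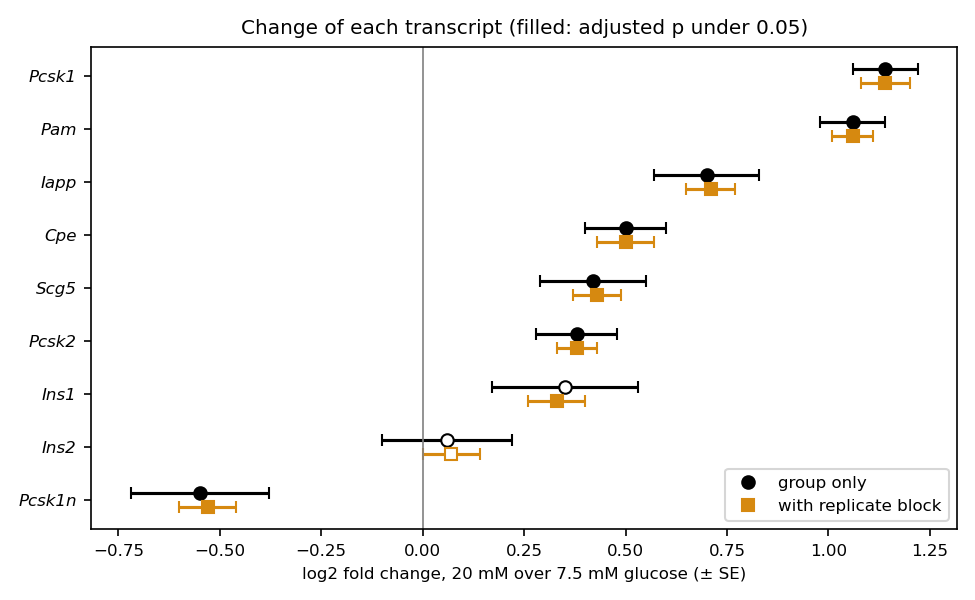
The x axis gives the log2 fold change of each of the 9 transcripts, high over low glucose, with bars of 1 standard error; circles are from the model with the glucose group alone, squares from the model that adds the replicate number, and filled symbols passed the threshold of 0.05 on the adjusted p. Pcsk1 and Pam lie past 1.0, Pcsk1n lies at -0.55, and Ins1 is filled only in the model with the replicate number.

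The members took 20.1% to 26.7% of all counts of a library. Total counts were 20516328 to 24905499 in the high and 19543045 to 24949515 in the low glucose libraries, so 3 counts corresponded to 0.114 to 0.161 CPM (counts scaled to the TMM-adjusted library size, per 1e6). As a check of the tissue, the hormones of the other islet cells were all measured, with mean CPM of 16926 in high and 19298 in low glucose for Gcg (glucagon), 2968 and 1885 for Sst (somatostatin), 2112 and 2636 for Ppy (pancreatic polypeptide), and 1232 and 1263 for Pyy. The low glucose library numbered 2 was the highest or lowest of its group for each member except Ins1, and without it the 7 called members still passed in the same direction. Left out, it moved the log2 fold change of Pcsk1n from -0.55 to -0.37, of Iapp from 0.70 to 0.83, of Scg5 from 0.42 to 0.56 and of Ins2, which still did not pass, from 0.06 to 0.22. In bulk RNA, fewer cells of a type and less RNA per cell cannot be told apart, and this holds for every level given here.

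On the per-length scale of the deposited FPKM, the 3 hormone transcripts stood far above the enzymes. Ins2 ranked 1 and Ins1 ranked 2 among all genes in every library, and Iapp ranked 3 or 4. In low glucose the mean FPKM was 114153 ± 23779 for Ins2, 32084 ± 5043 for Ins1 and 19218 ± 3095 for Iapp (SD, n = 4), with no overlap between the 3. In high glucose Ins1 (41488 ± 10358) and Iapp (31732 ± 3626) overlapped in range, while Ins2 (121144 ± 18733) stayed apart. Next came Cpe, at 1331 ± 158 FPKM in low and 1907 ± 109 in high glucose. Pcsk1n was 5th in low glucose at 729 ± 180 FPKM and 7th in high glucose at 504 ± 73.6, where its range overlapped that of Pcsk2. Pcsk2 (462 ± 35.7 in low, 610 ± 60.2 in high) and Scg5 (453 ± 85.6 in low, 613 ± 69.7 in high) overlapped each other in both groups. Pcsk1 (122 ± 8.24 in low, 272 ± 16.0 in high) and Pam (45.4 ± 3.26 in low, 96.0 ± 5.9 in high) had the lowest levels. The per-length levels, the order at the lower end and the gap between Ins1 and Iapp in low glucose depend on the gene length used. The table gives Pam 11892 bases and its principal transcript in GENCODE M21 has 4102. With principal transcript lengths, an alternative chosen after seeing the data, Pam reached 278 ± 17.1 and Pcsk1 302 ± 17.8 in high glucose, with overlapping ranges, and Pcsk2 (1021 ± 101) lay above Scg5 (797 ± 90.6). Ins2, given 1312 bases in the table and 478 in its principal transcript, reached 332512 ± 51417 in high glucose and remained the highest of the 9. With these lengths Ins1 spanned 23462 to 33278 and Iapp 20289 to 27684 in low glucose, so their ranges overlapped there too.

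**Figure D2:**
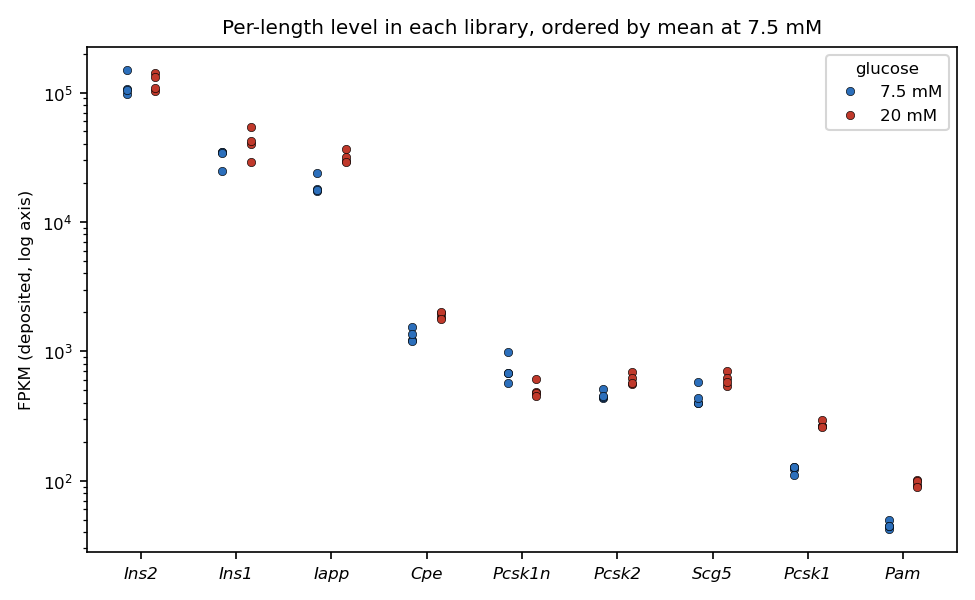
Each point is the deposited FPKM of 1 library on a log axis, for the 9 transcripts in order of their mean in 7.5 mM glucose, with low glucose in blue and high glucose in red. The hormones lie at 17477 FPKM or higher and Cpe, at 1206 to 2011, above the other processing genes.

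The coding sequences of Ins1 and Ins2 are shown first, because their likeness bears on how reads can be told apart between the genes. The sequences are from GENCODE M21 (GRCm38), 5′ to 3′, bases 1 to 285 of Ins1 and 1 to 291 of Ins2, with capitals for bases that differ from or are missing in the other gene.
Ins1: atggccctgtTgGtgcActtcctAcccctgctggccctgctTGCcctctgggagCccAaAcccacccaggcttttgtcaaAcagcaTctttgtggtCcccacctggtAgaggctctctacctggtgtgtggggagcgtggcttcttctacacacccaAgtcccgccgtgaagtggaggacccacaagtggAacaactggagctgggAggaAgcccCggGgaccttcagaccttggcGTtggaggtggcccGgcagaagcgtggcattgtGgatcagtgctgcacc
Ins2: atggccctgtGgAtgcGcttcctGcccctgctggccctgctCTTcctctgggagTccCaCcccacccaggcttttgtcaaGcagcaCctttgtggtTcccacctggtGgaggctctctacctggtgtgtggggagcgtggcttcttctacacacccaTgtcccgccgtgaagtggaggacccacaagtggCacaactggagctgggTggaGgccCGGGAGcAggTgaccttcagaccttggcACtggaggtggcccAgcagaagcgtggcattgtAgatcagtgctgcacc
The remaining 39 bases before the stop codon are identical and are not printed. Of 324 aligned bases, 300 were identical (92.6%), and Ins2 has 6 further bases. The longest identical run was 54 bases. Of the 25-base stretches of the Ins1 coding sequence 21% also occur in an Ins2 transcript, of the 50-base stretches 1.82%, and of the 100-base stretches none of 225. Neither the read length nor the handling of reads that match both genes is given in the sources used here, so the division of counts between Ins1 and Ins2 is uncertain.

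Ins2 (ENSMUSG00000000215, GRCm38, chromosome 7, 142678656 to 142743381, minus strand) had 135932, 190032, 171952 and 144474 CPM in high glucose libraries 1 to 4 and 131131, 201696, 142356 and 139209 in low glucose libraries 1 to 4. The groups overlapped fully, with the highest value in a low glucose library. The log2 fold change was 0.06 ± 0.16 (SE; edgeR adjusted p = 0.802), so no difference was detectable against this spread, and its sign turned with plain library sizes and when library 2 of high glucose or library 1 of low glucose was left out.

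Ins1 (ENSMUSG00000035804, chromosome 19, 52264323 to 52265456, plus strand) had 55878, 41666, 43091 and 29755 CPM in high glucose and 36416, 36230, 35902 and 25254 in low glucose. High glucose libraries 1 to 3 exceeded all low glucose libraries, while library 4 of each group was the lowest of its group. Its log2 fold change was 0.35 ± 0.18 (edgeR adjusted p = 0.2), which did not pass. Leaving out library 1 or 4 of high glucose gave 0.19 or 0.49, and leaving out library 4 of low glucose 0.23 (edgeR adjusted p = 0.487, 0.0538 and 0.41). With the replicate number as a block it was 0.33 ± 0.07 with an edgeR adjusted p of 0.00406. The high glucose library was 1.53, 1.15, 1.2 and 1.18 times as high as the low glucose library of the same number. The block was 1 of 18 alternative analyses, and the only one in which Ins1 passed. It was also the only one that paired libraries by number. The main fit and the other alternatives did not use such a pairing.

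Summed, the insulin genes took 19.0%, 21.7%, 20.7% and 17.3% of all counts in high glucose and 17.7%, 22.7%, 18.8% and 17.2% in low glucose. The means, 19.7% ± 1.95 and 19.1% ± 2.5 (SD, n = 4), differed by less than the spread between libraries (two-sided exact permutation test over 70 assignments, p = 0.714). Ins1 counts per Ins2 count were 0.411, 0.219, 0.251 and 0.206 in high glucose and 0.278, 0.18, 0.252 and 0.181 in low glucose. The groups overlapped (exact permutation p = 0.457, 0.571 after adjustment over the 10 ratios and shares tested), and without high glucose replicate 1 the difference in mean log2 ratio went from 0.26 to 0.04.

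Iapp (ENSMUSG00000041681, chromosome 6, 142298423 to 142303961, plus strand), which encodes amylin, the peptide stored and released with insulin, rose in high glucose. Its levels were 28973, 36451, 31090 and 28428 CPM in high glucose and 17541, 23909, 18019 and 17323 CPM in low glucose. All high glucose libraries were above all low glucose libraries, and in both groups library 2 was the highest. On the log2 scale the change was 0.70 ± 0.13 (1.63-fold, edgeR adjusted p = 0.00248), and Iapp passed in all 18 alternatives.

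Relative to insulin, the Iapp counts were almost level within each group. There were 151, 157, 145 and 163 Iapp counts per 1000 insulin counts in high glucose and 105, 100, 101 and 105 in low glucose. The means were 154 ± 8.01 and 103 ± 2.46 (SD, n = 4), a 1.5-fold difference with no overlap. The exact permutation p was 0.0286, the smallest that 4 against 4 libraries allow (0.0408 after adjustment over the 10). Of the 10 quantities tested, 7 reached this value, and their groups did not overlap. The 10 are not independent, since several share the insulin counts or Pcsk1. Ratios of other genes were not computed, so there is no background share for this count.

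**Figure D3:**
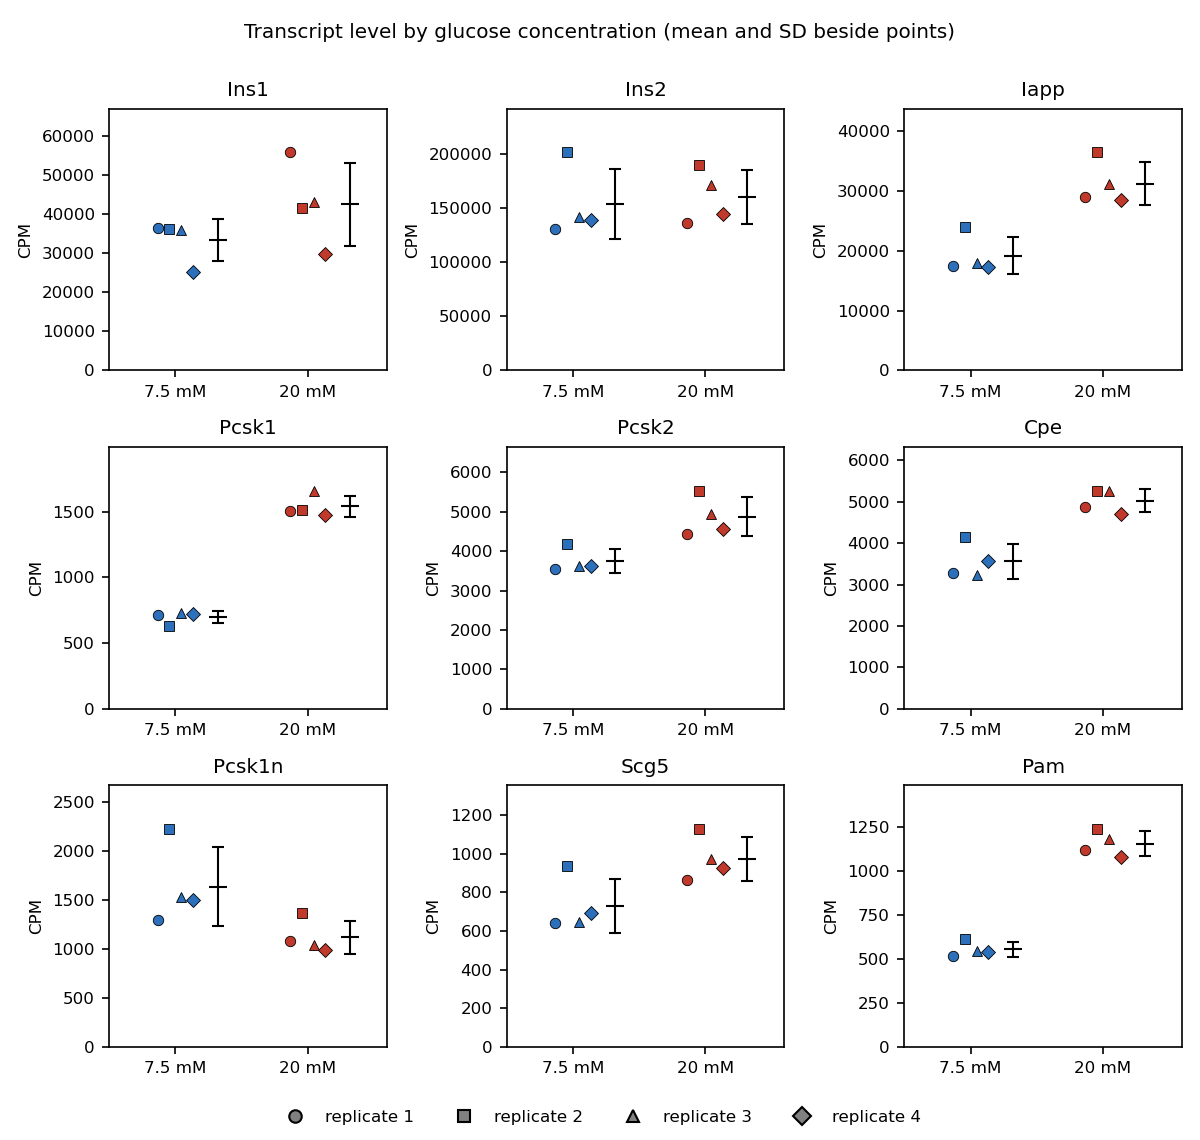
Each panel shows 1 transcript, with CPM on the y axis from 0, 1 point per library in 7.5 mM (blue) and 20 mM glucose (red), a marker shape per replicate number, and the mean with SD beside the points. Iapp, Pcsk1, Pcsk2, Cpe and Pam show separate groups, Ins1, Ins2, Scg5 and Pcsk1n overlapping ones, and in low glucose the square (replicate 2) is highest for Ins2, Iapp, Pcsk2, Cpe, Pcsk1n, Scg5 and Pam and lowest for Pcsk1.

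The promoter sequences of the endoprotease genes and of the inhibitor gene are printed because Pcsk1 and Pcsk2 rose by different amounts and Pcsk1n fell. They are RefSeq sequences on GRCm38.p6, on the strand of the gene, 5′ to 3′ and upstream of the RefSeq start (for Pcsk1 the 31 bases next to that start, which lie in the gene as the deposited table bounds it, are not printed), with capitals for TGACG, the core of the cyclic AMP response element, on either strand. Of the 9 members 7 were matched to the promoter table, all but Ins2 and Cpe.
Pcsk1, chr13:75089607-75089825: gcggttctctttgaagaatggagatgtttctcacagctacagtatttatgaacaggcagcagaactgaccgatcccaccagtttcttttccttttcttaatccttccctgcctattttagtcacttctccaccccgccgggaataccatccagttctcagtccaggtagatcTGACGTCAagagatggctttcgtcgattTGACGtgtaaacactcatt
Pcsk2, chr2:143545883-143546132: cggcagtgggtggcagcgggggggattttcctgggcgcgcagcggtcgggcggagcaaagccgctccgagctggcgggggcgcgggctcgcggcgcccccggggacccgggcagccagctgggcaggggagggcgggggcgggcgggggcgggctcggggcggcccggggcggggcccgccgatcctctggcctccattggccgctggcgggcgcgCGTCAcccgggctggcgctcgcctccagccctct
Pcsk1n, chrX:7919572-7919821: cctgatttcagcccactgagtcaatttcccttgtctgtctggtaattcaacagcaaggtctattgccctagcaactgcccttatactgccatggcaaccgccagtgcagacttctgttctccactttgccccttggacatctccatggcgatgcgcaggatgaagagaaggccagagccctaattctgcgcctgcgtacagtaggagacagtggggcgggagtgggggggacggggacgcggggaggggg
The Pcsk1 promoter holds the full palindrome TGACGTCA, beginning 78 bases before the RefSeq start, which occurs within 250 bases upstream of 1.77% of 27025 genes. TGACG was found on either strand in 19.8% of genes; in Pcsk1 it matched at positions -78, -75 and -50, the first and second being the opposite strands of the palindrome. Pcsk2 holds TGACG at -34, read on the opposite strand, Scg5 holds it at -175, and Ins1, Iapp, Pcsk1n and Pam do not hold it in this window. The letters of the unfolded protein response element, TGACGTGG (0.603% of genes), and of the ER stress response element, known as ERSE (0.13%), searched on both strands, were not in the window of any of the 7 members. TGACGTGG shares its first letters with TGACGTCA. At -50, the printed Pcsk1 sequence differs from TGACGTGG only in its last letter. How often such a near match occurs was not counted. The letters CACGTG (6.86% of genes) were also absent from the 7 windows. TAAT, the core bound by homeodomain factors, was present in 58.5% of genes. Searched on both strands, it matched 5 times in Iapp, 3 times in Ins1, 2 times in Pcsk1n and 1 time each in Pcsk1 and Scg5. The Iapp matches at -74 and -72 overlap each other, so they are not separate sites. A match of letters is a description of the sequence, and binding was not measured.

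Pcsk1 (ENSMUSG00000021587, chromosome 13, 75089826 to 75134861, plus strand) had the largest change of the 9. Its levels were 1507, 1515, 1660 and 1478 CPM in high glucose against 713, 632, 731 and 721 CPM in low glucose. Every high glucose library was at least 2.05 times as high as the low glucose library of the same number. This was a log2 fold change of 1.14 ± 0.08 (edgeR adjusted p = 9.03e-06), which passed in all 18 alternatives. At least 2-fold higher and past the threshold were Pcsk1 and Pam, as were 3.46% of all tested genes.

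Pcsk2 (ENSMUSG00000027419, chromosome 2, 143546156 to 143816285, plus strand) rose less. It had 4442, 5538, 4937 and 4573 CPM in high glucose and 3559, 4190, 3619 and 3617 CPM in low glucose, with no overlap. Pcsk2 had a log2 fold change of 0.38 ± 0.10 (1.3-fold, edgeR adjusted p = 0.0152), and its adjusted p was 0.0513 without low glucose replicate 4. The antisense genes Pcsk2os1 and Pcsk2os2 overlap Pcsk2, with counts equal to 0.37% and 0.0524% of its own, and the strand setting of the counting is not given.

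The balance of the endoprotease transcripts differed between the groups. Pcsk1 counts per Pcsk2 count, not corrected for gene length, were 0.339, 0.274, 0.336 and 0.323 in high glucose and 0.2, 0.151, 0.202 and 0.199 in low glucose. The ratio was 1.7-fold higher in high glucose (exact permutation p = 0.0286, 0.0408 adjusted). Per 1000 insulin counts, Pcsk1 went from 3.85 ± 0.802 to 7.65 ± 0.813 and Pcsk2 from 20.3 ± 1.91 to 24.1 ± 1.51 (SD, n = 4), 2.02-fold and 1.19-fold, both at the same exact permutation p.

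Pcsk1n (ENSMUSG00000039278, chromosome X, 7919822 to 7924410, plus strand), the gene of the inhibitor proSAAS, fell. It had 1079, 1365, 1036 and 992 CPM in high glucose and 1294, 2229, 1528 and 1503 in low glucose. The groups overlapped by 1 library, since high glucose library 2 lay above low glucose library 1. Low glucose library 2 was the highest of the 8, and in each of the 4 pairs of equal number the low glucose library was higher. Pcsk1n had a log2 fold change of -0.55 ± 0.17 (edgeR adjusted p = 0.0339). It did not pass without high glucose replicate 1 (0.0798), 3 (0.0896) or 4 (0.0881), without low glucose replicate 4 (0.0534), or with the share of acinar transcripts as a covariate (edgeR adjusted p = 0.0508). In these alternatives its log2 fold change was -0.54, -0.52, -0.50, -0.59 and -0.48 in the same order.

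The ratio of inhibitor to enzyme transcripts separated the groups. There were 0.716, 0.901, 0.624 and 0.671 Pcsk1n counts per Pcsk1 count in high glucose and 1.82, 3.53, 2.09 and 2.09 in low glucose. These ratios are not corrected for gene length; per length, on the FPKM scale, the level of Pcsk1n lay above that of Pcsk1 in both groups. The ratio was 3.19-fold higher in low glucose (difference in mean log2 ratio -1.67, exact permutation p = 0.0286, 0.0408 adjusted), and the difference was -1.47 to -1.79 when 1 library was left out.

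Scg5 (ENSMUSG00000023236, chromosome 2, 113776362 to 113829121, minus strand), whose product binds the Pcsk2 enzyme, had 865, 1128, 974 and 923 CPM in high glucose and 642, 934, 645 and 693 CPM in low glucose. Low glucose library 2 lay above high glucose libraries 1 and 4, and the other low glucose libraries lay below all high glucose libraries. The log2 fold change was 0.42 ± 0.13 (1.34-fold, edgeR adjusted p = 0.044). This call was narrow: it was kept without low glucose replicate 2 (adjusted p = 0.00165) and lost without any 1 of the other 7 libraries (0.0509 to 0.122). Scg5 counts per Pcsk2 count were 0.195 to 0.204 in high glucose (mean 0.199 ± 0.00408) and 0.178 to 0.223 in low glucose (0.193 ± 0.0206), overlapping ranges with an exact permutation p of 0.514 and a 1.04-fold difference in mean (SD, n = 4).

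**Figure D4:**
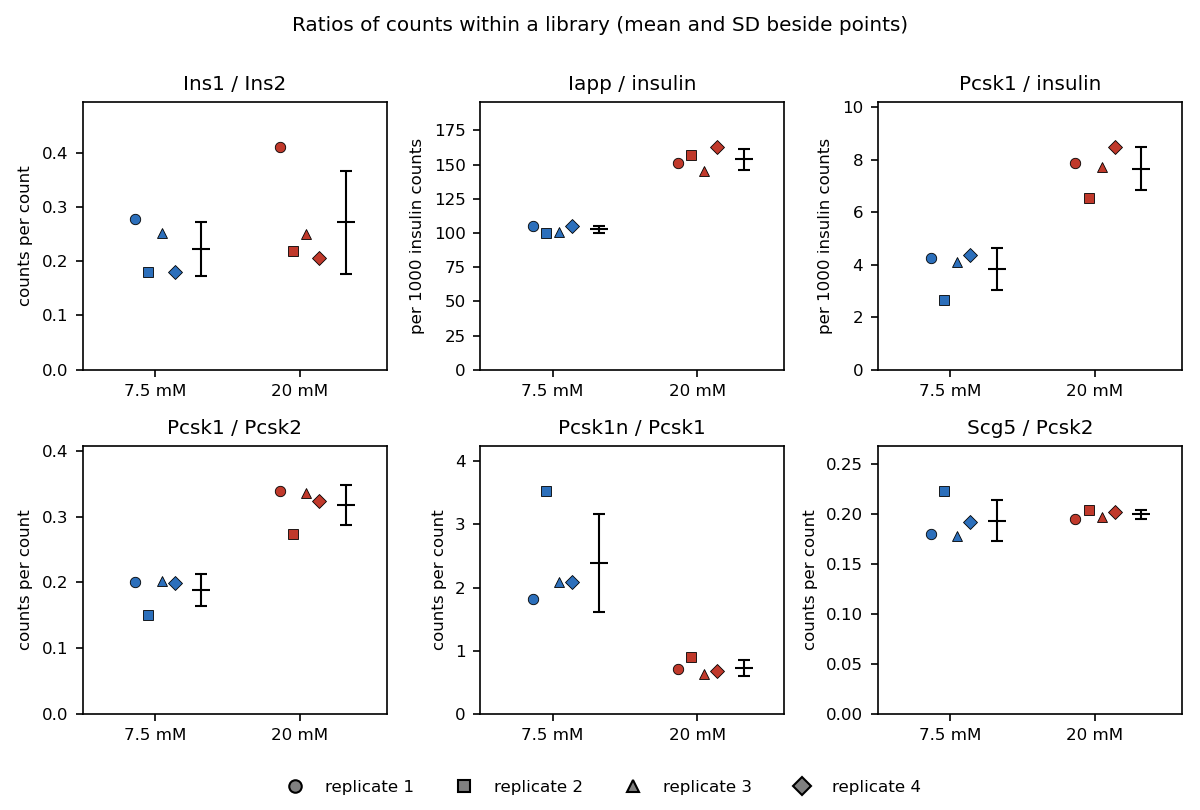
Each panel shows 1 ratio of read counts taken within a library, on a y axis from 0, with 1 point per library (blue 7.5 mM, red 20 mM glucose), a marker shape per replicate number and the mean with SD beside the points. Iapp and Pcsk1 per insulin, Pcsk1 per Pcsk2 and Pcsk1n per Pcsk1 separate the groups, while Ins1 per Ins2 and Scg5 per Pcsk2 overlap.

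Cpe (ENSMUSG00000037852, chromosome 8, 64592542 to 64693054, minus strand), the carboxypeptidase that trims the cut ends, had 4868, 5272, 5254 and 4711 CPM in high glucose and 3284, 4155, 3234 and 3573 CPM in low glucose. The groups did not overlap. The log2 fold change was 0.50 ± 0.10 (edgeR adjusted p = 0.00385), and Cpe passed in all 18 alternatives. Per 1000 insulin counts there were 24.9 ± 1.79 Cpe counts in high and 19.2 ± 1.88 in low glucose (SD, n = 4; exact permutation p = 0.0286, 0.0408 adjusted), 1.3-fold higher.

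Pam (ENSMUSG00000026335, chromosome 1, 97795114 to 98095646, minus strand), the amidating enzyme, had 1116, 1238, 1182 and 1076 CPM in high glucose and 515, 610, 546 and 541 CPM in low glucose. The lowest high glucose library was well above the highest low glucose library. Pam rose by a log2 fold change of 1.06 ± 0.08 (edgeR adjusted p = 1.62e-05) and passed in all 18 alternatives. Pam counts per Iapp count, the enzyme relative to the hormone it amidates, were 0.0385, 0.034, 0.038 and 0.0379 in high glucose and 0.0294, 0.0255, 0.0303 and 0.0312 in low glucose. The ratio was 1.28-fold higher in high glucose with no overlap (exact permutation p = 0.0286, 0.0408 adjusted).

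In the authors' deposited table the same 7 members passed at an adjusted p of 0.05, with log2 fold changes of 1.14 for Pcsk1, 1.07 for Pam, 0.71 for Iapp, 0.50 for Cpe, 0.42 for Scg5, 0.38 for Pcsk2 and -0.55 for Pcsk1n. In the authors' deposited table Ins1 had 0.35 (adjusted p = 0.125) and Ins2 0.07 (adjusted p = 0.794).

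Pam needs copper and ascorbate, and 3 of the 5 tested genes of a list for their supply rose while none fell. Their median log2 fold change was 0.64. For this list and those that follow, the shares over all tested genes were 13.1% higher and 11.9% lower. Slc31a1, the copper importer of the plasma membrane, went from 31.8 ± 0.813 to 67.4 ± 2.49 CPM (SD, n = 4; 2.12-fold, edgeR adjusted p = 3.07e-06). Cyb561, which passes electrons across the granule membrane to regenerate ascorbate, went from 84.0 ± 4.41 to 178 ± 9.29 CPM (2.12-fold, edgeR adjusted p = 6.14e-06). Slc23a2, an ascorbate transporter, went from 67.0 ± 6.71 to 104 ± 8.75 CPM (1.56-fold, edgeR adjusted p = 0.000641). The copper pump gene Atp7a had a log2 fold change of -0.03 and the copper chaperone gene Atox1 0.36, neither of which passed. Slc31a1 overlaps Cdc26 on the opposite strand, whose counts equalled 52.9% of its own, so its value is uncertain.

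Of the other 7 subtilisin-like convertases, which act largely outside the regulated granules, none rose and 2 fell, with a median log2 fold change of -0.21. Pcsk6 was 2.54-fold higher in low glucose (45.2 ± 3.84 against 17.8 ± 1.41 CPM, edgeR adjusted p = 6.25e-06). Furin, the convertase of the constitutive pathway, had a log2 fold change of -0.03 and did not pass.

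Of 10 tested genes of other trimming and modifying enzymes 3 rose and 1 fell, with a median log2 fold change of 0.20. Qpctl, a Golgi glutaminyl cyclase, rose 1.71-fold (edgeR adjusted p = 8.6e-05) and Cpn1, a secreted carboxypeptidase subunit, 1.34-fold (adjusted p = 0.00593). Nrd1, a peptidase that cuts at basic residues, rose 1.16-fold (edgeR adjusted p = 0.0333) but did not pass in 10 of 18 alternatives. Cpm, a membrane-bound carboxypeptidase, fell, being 1.96-fold higher in low glucose (edgeR adjusted p = 5.43e-05). On opposite strands, Qpctl overlaps Fbxo46 and Nrd1 overlaps Osbpl9, whose counts equalled 40.1% and 25.5% of theirs.

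Among other prohormones and granins, the further cargo of this pathway, 9 of 22 tested genes rose and 1 fell, with a median log2 fold change of 0.55. Pdyn, the dynorphin precursor, went from 82.2 ± 17.5 to 829 ± 151 CPM (SD, n = 4; 10.1-fold, edgeR adjusted p = 3.46e-06). Vgf, a granin-like precursor, rose 6.04-fold (adjusted p = 6.63e-06), Nucb2, the nesfatin precursor, 3.56-fold (8.53e-07) and Chgb, chromogranin B, 2.23-fold (8.63e-05). Chga, chromogranin A, fell, being 1.33-fold higher in low glucose (edgeR adjusted p = 0.0269), and did not pass without high glucose replicate 1, 3 or 4 (0.0742, 0.0548 and 0.0674). Gcg, Ppy and Pyy did not pass, and Sst had a log2 fold change of 0.65 with an edgeR adjusted p of 0.0628, which was 2.98e-05 with the replicate block.

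In a list of 22 transcription factors and coactivators of the insulin genes or β cells, 6 fell and 1 rose. The median log2 fold change was -0.16. Those that fell included Rfx6, 1.45-fold higher in low glucose (edgeR adjusted p = 0.00137), Crtc2, a CREB coactivator, 1.32-fold (0.00183), Myt1 1.37-fold (0.00246) and Nfatc2 1.54-fold (0.00331). Nfatc1 rose 1.34-fold (edgeR adjusted p = 0.0287) and did not pass in 5 of 18 alternatives. The other 2 that fell were Mafa and Isl1, and Pdx1 (log2 fold change 0.07) and Neurod1 (-0.17) did not pass. With the replicate block 11 of this list fell and 2 rose, beside 18.5% and 18.9% of all tested genes. With plain library sizes 11 fell and 0 rose, where 2636 genes fell and 1602 rose over all. Without both libraries numbered 2, 10 fell, where 2470 genes fell over all, against 1831 in the main fit. Of 8 genes of insulin mRNA binding proteins only Elavl4 passed, 1.31-fold higher in low glucose (edgeR adjusted p = 0.0108), with a median of -0.04 over the list.

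**Figure D5:**
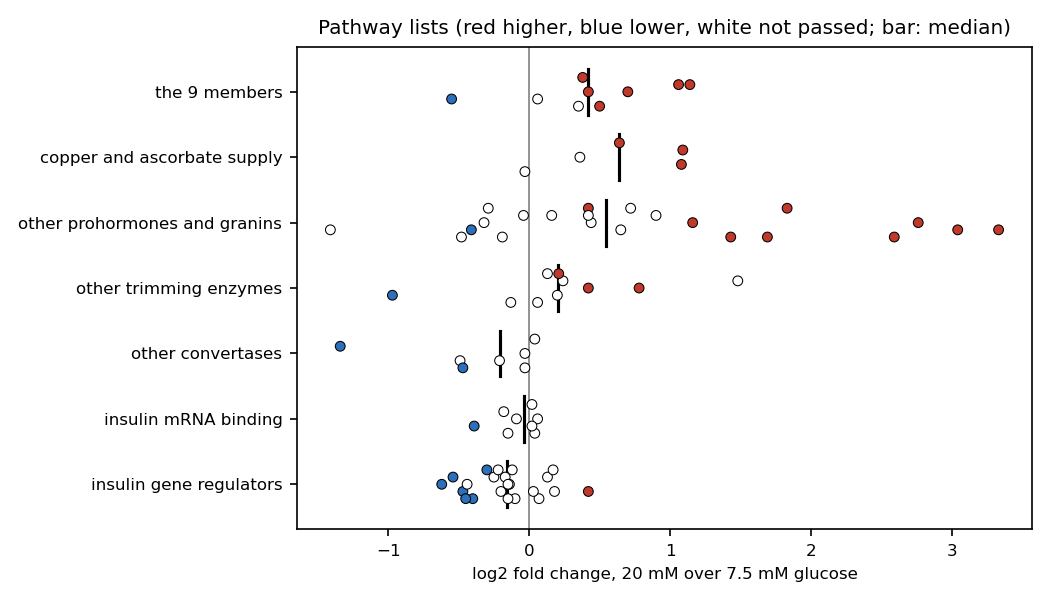
Each point is the log2 fold change of 1 gene, high over low glucose, in the 9 members and 6 lists of related genes; red points passed the threshold as higher, blue as lower, white did not pass, and the bar is the list's median. The medians run from 0.64 for copper and ascorbate supply and 0.55 for other prohormones to -0.21 for other convertases.

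Levels of cell type markers are given because they can move with the hormone transcripts. Of 8 β-cell markers 2 rose and 4 fell, with summed CPM of 7512 to 8938 in high and 7397 to 7804 in low glucose: G6pc2 rose 1.93-fold (edgeR adjusted p = 3.33e-05) and Mafa was 1.38-fold higher in low glucose (0.00809). Of 8 α-cell markers 2 rose and none fell (summed 12840 to 25543 CPM in high, 14322 to 29532 in low), with Gcg not passing and Ttr 1.65-fold higher (adjusted p = 0.0216; not passing in 4 of 18 alternatives). None of 4 tested δ-cell markers (Sst and Rbp4 the most abundant) or 3 markers of PP cells (Ppy and Pyy) passed. Of 17 tested acinar markers 1 rose, the transcription factor Bhlha15, and 10 were higher with the replicate block, Ctrb1 and Try5 among them. Their summed CPM was 4134 to 21131 in high and 1465 to 12034 in low glucose, a wide spread within each group. Of 7 duct markers 1 rose (Spp1, which did not pass in 8 of 18 alternatives) and 1 fell. None of the 7 endothelial, 8 fibroblast and 8 immune markers passed, and their summed levels were at most 43.3, 1133 and 419 CPM. No marker of any list was at 0 in all libraries. With the acinar share as a covariate, the 6 members that rose still passed, and Pcsk1n had a log2 fold change of -0.48 (edgeR adjusted p = 0.0508) in place of -0.55; the part of the other cell types in these results was not tested.

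As a description of which genes had the most similar pattern, the Pearson correlation of log2 CPM over the 8 libraries was taken for 4 members against 6808 well-expressed protein-coding genes. The libraries of a group share their condition and, by number, possibly their source, so these values carry the group difference as well. For Ins2 the closest were Ndufs5 (0.980), Pebp1 (0.978) and Ndufb9 (0.978). For Iapp they were Gde1 (0.999), Prkar1a (0.995) and Gla (0.994). For Pcsk1 they were Cog6, Ell2 and Etv5 (each 0.999), and for Pcsk2 Lgals3bp (0.993), Gpr45 (0.991) and Sgcb (0.990). The genes nearest to Ins2 did not pass between the groups, with edgeR adjusted p of 0.751 to 0.88, while the 9 nearest to the other 3 members all rose. This follows largely from how the genes were picked, because the correlation carries the group difference, and is no separate result.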

How the data were processed

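RNA of 4 high and 4 low glucose libraries was sequenced after NEBNext Ultra library preparation, per the labels' protocols. Per the submitters' processing notes, STAR 2.5, HTSeq 2 and DESeq2 were used with mm10 (GRCm38); the annotation release, read length, strand setting and treatment of multiply matching reads were not given in the sources used here. Per the file headers, the deposited table holds the authors' raw read count per gene and library, the authors' FPKM, and the authors' log2 fold change and p-value columns. The deposited FPKM equals the count divided by the listed gene length and by 1 total per library. That total was not the sum of the library's counts. It was 0.954 to 1.0 times that sum in high glucose and 0.983 to 1.09 times in low glucose.

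Counts were tested in R 4.3.3 with edgeR 4.0.16: TMM scaling, filterByExpr (minimum count 10, minimum total 15), a quasi-likelihood fit with the group as its only term over all 8 libraries, and Benjamini-Hochberg adjustment over the 15442 genes tested. Each standard error was obtained from the log2 fold change and its F statistic. Ratios were taken between raw counts within a library and tested by a two-sided exact permutation test of the mean log2 ratio, adjusted over the 10 quantities. The fit, tested on simulated counts of 15211 genes, called 46.3% of true 1.5-fold, 71.6% of 2-fold and 92.4% of 4-fold changes. Of its 146 calls 6 were false. The simulation changed a far smaller share of genes than the 25.0% called in these data, and its libraries were not paired. Its percentages are therefore not the power of the reported test. The 18 alternatives used other scalings (plain library sizes, RLE, upper quartile, TMM without Ins1 and Ins2), no filter, the replicate block, DESeq2 1.42.0, limma-voom (3.58.1), an acinar covariate, each library left out in turn and both libraries numbered 2 left out.

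Each group has replicate numbers 1 to 4, whose meaning the labels leave unsaid. Deviations from the group means of same-numbered libraries correlated at 0.101, 0.449, 0.404 and 0.475. For number 1 a pairing was not clear. Low glucose 1 correlated more with high glucose 4 (0.207), and high glucose 1 nearly as much with low glucose 2 (0.088). Only the replicate block used the numbers as a pairing. The main fit and the exact permutation tests did not, so they leave any pairing out of account. Chi-square per gene between libraries of a group was 14.1 or more, so none was a copy. The members and lists were chosen with earlier results of these data known. Named were all members, from each pathway list at most 4 passing genes in order of adjusted p plus at most 2 of the other direction, the 2 most abundant markers of each cell type, and the 3 genes most like 4 members; other genes were named after their values were seen. Some genes of the lists are not reported here by name. Counting floors cover counting error only.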

Additional observations from a re-analysis of the deposited data

Results flagged for a closer look

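In 8 of 38 groups of 4 values, 1 library stood apart from the other 3 by more than Dixon's critical ratio; chance flags about 5% of groups, and the groups share libraries, so they are not independent. Low glucose library 2 gave 6 of them. It was high for Ins2 (201696 CPM, next library 142356), Iapp (23909 CPM, next 18019) and Pcsk2 (4190 CPM, next 3619). In the same library Pcsk1n counts per Pcsk1 count were high (3.53, next 2.09), and Pcsk1 was low per 1000 insulin counts (2.66, next 4.1) and per Pcsk2 count (0.151, next 0.199). Low glucose library 4 was low for Ins1 (25254 CPM, next 35902). High glucose library 2 was low in Pam counts per Iapp count (0.034, next 0.0379).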

How the results depend on the processing

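Iapp, Pcsk1, Cpe and Pam passed in the same direction in all 18 alternatives. Counts of genes called were 1617 to 2656 higher and 1382 to 2476 lower when 1 library was left out, and with the replicate block 2862 were lower in place of 1831. Without both libraries numbered 2, chosen after seeing the data, 2563 were higher and 2470 lower, and 6 members were higher and 1 lower. Members called were 4 to 6 higher and 0 to 1 lower when 1 library was left out; with the acinar covariate 0 were lower, as Pcsk1n had a log2 fold change of -0.48 and an edgeR adjusted p of 0.0508. Log2 fold changes that did not pass and lay near 0 changed sign when 1 library was left out: Ins2 ranged from -0.03 to 0.22, Gcg from -0.39 to 0.05, Pyy from -0.21 to 0.18, Krt7 from -0.09 to 0.00, Rbp4 from -0.12 to 0.23, Eng from -0.02 to 0.27 and Lyz2 from -0.16 to 0.17. With plain library sizes Ins2 was at -0.01 and Rbp4 at -0.05, with the acinar covariate Lyz2 was at 0.06, and without both libraries numbered 2 Pyy was at 0.00 and Lyz2 at 0.14. The insulin share had a log2 difference of -0.01 with the authors' FPKM. The cause was not tested. The replicate block changed the call of no member other than Ins1. The number of libraries and the unknown handling of reads shared by Ins1 and Ins2 limit what small differences could be detected.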
